A study of Mus musculus with 10 samples.

Results

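The interferon response and MHC class I antigen presentation were followed in mouse skeletal muscle through 43 genes, taken by symbol from a list of interferon-induced and antigen presentation genes. Each of the 43 symbols matched 1 Ensembl gene among the 43629 genes counted. The libraries were of 2 kinds, total RNA and the RNA that a home-made antibody to IMP2 pulled down (immunoprecipitation, IP); IMP2, the product of Igf2bp2, binds RNA. There were 2 IP libraries from knockout (KO) muscle, 2 IP libraries from wild-type (WT) muscle, 3 total RNA libraries from KO muscle and 3 total RNA libraries from WT muscle. KO mice are labelled IMP2 null, and the series describes a knockout made in muscle only; neither the Cre driver nor the removed part of Igf2bp2 is given in the sources used here. All mice, KO and WT, were male C57BL/6 animals of 6 weeks that had been on HFD for 2 weeks, so no library came from a mouse without that diet. The labels do not say that each numbered sample was its own animal, so the spread behind the p-values may be technical.

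Interferons are secreted proteins that signal through cell-surface receptors and JAK kinases. Type I interferon activates a complex that contains STAT2 and IRF9 and binds the interferon-stimulated response element in the promoters of its targets; IRF1 is a regulator that interferon gamma also induces. The induced genes encode sensors of foreign nucleic acid, enzymes and binding proteins that block viral RNA and translation, and the machinery that cuts, transports and displays peptides on MHC class I, which healthy muscle fibres are known to display only weakly. In bulk tissue a lower level can come from fewer cells of a type or from less RNA per cell, and these cannot be told apart here.

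The promoters of the genes were searched on both strands for the core of the interferon-stimulated response element, which is GAAA, any 2 bases and GAAA again (TTTC, any 2 bases and TTTC when read from the opposite strand). RefSeq promoter windows of GRCm38.p6, 250 bases before to 50 bases after the start, were at hand for 33 of the 43 genes, and 13 of these 33 (39.4%) held the core, against 3.99% of all 27025 genes with a window. Matches were counted where they overlapped one another. The 13 were 3 nucleic acid sensors (Ifih1, Ddx58, Eif2ak2), Oas1a and Oas3, Stat2, Isg15, 5 antiviral effectors (Ifit1, Ifit3, Rsad2, Bst2, Gbp2) and, of the 7 antigen presentation genes, B2m. A match is a description of these letters and not a site of binding. In the 5 promoters printed here, 5′ to 3′ on the strand of the gene, capitals mark each match. Oas1a (chr5:120907476-120907775, minus strand) and Stat2 (chr10:128270248-128270547, plus strand) are 2 of the 4 genes whose KO total RNA libraries all lay below the WT ones. The others of the 4, Oas2 and Nlrc5, were not among the 13 genes with a match, for lack of a match or of a window. Ifit1 (chr19:34640639-34640938, plus strand) holds a pair of separate matches. B2m (chr2:122147437-122147736, plus strand) is the antigen presentation gene with a match. Irf7 (chr7:141266375-141266674, minus strand), which held no match in this window, had the second smallest p in total RNA.
Oas1a: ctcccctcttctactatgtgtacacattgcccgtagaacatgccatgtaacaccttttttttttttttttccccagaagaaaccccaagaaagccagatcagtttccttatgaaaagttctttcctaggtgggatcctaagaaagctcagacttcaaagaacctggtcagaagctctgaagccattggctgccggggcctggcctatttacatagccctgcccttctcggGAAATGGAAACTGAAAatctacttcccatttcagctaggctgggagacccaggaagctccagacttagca
Stat2: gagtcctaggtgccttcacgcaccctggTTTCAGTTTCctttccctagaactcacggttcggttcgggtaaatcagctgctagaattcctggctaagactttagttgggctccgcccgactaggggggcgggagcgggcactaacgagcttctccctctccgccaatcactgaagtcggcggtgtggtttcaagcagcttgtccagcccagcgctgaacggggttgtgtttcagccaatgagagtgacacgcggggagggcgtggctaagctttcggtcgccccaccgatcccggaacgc
Ifit1: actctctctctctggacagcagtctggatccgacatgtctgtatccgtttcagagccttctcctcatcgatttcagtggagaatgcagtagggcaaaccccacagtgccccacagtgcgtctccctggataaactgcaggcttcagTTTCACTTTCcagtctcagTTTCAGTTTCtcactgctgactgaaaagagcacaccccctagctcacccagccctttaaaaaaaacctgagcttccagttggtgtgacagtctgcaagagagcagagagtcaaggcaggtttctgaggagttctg
B2m: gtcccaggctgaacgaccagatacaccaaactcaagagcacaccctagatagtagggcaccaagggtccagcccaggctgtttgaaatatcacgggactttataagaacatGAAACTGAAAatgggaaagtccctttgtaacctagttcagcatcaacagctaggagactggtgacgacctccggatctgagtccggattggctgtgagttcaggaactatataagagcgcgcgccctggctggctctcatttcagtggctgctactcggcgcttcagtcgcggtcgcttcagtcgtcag
Irf7: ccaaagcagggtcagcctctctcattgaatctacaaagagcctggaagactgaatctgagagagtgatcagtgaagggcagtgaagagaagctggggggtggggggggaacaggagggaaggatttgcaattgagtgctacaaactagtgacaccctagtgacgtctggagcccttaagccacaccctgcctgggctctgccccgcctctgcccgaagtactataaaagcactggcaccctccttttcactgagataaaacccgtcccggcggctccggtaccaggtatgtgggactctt
In Oas1a the matches overlapped and began 20 and 14 bases before the start. The Stat2 match began 222 bases, the Ifit1 matches 104 and 85 bases, and the B2m match 139 bases before the start. Isg15, whose promoter is not printed, had 3 overlapping matches between 78 and 66 bases before the start.

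Gene counts per library ran from 9691580 to 10739792 in KO total RNA, from 12299030 to 14809788 in WT total RNA, from 917462 to 4037480 in KO IP and from 2159115 to 2547124 in WT IP. Every KO total RNA library was thus shallower than every WT one, and KO IP 1 was the shallowest of all. Igf2bp2, the targeted gene, had 2.52, 1.88 and 2.47 CPM (counts scaled to library size) in KO total RNA against 2.51, 2.86 and 3.35 CPM in WT total RNA, and 8.65 and 5.19 CPM in KO IP against 11.8 and 1.56 CPM in WT IP. Both pairs of groups overlapped, so this count over the whole gene, at most 48 reads in a library, did not separate the genotypes; where the deleted part lies is not known here. Skeletal muscle fibre markers summed to 178635 to 230513 CPM in KO total RNA and 97643 to 180491 CPM in WT total RNA, and none was at 0 throughout a group. KO total 1 stood apart with 1397 CPM of the insulin gene Ins2, where no other total RNA library exceeded 0.772 CPM, and with 46 counts of Xist, a transcript of female cells, where no other total RNA library exceeded 3, although all mice were labelled male. WT total 2 held 225 CPM of the brown fat gene Ucp1, and the remaining total RNA libraries no more than 3.70 CPM. The IP libraries held both transcripts, with Ins2 at 211 and 87.1 CPM in KO IP and 23.97 and 205 CPM in WT IP, and Ucp1 at 42.3 and 20.1 CPM in KO IP and 7.15 and 68.6 CPM in WT IP. WT total 3 had the lowest muscle fibre sum. The counts and medians of the list are given below with and without these 3 libraries.

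Levels of the genes within muscle were compared per kilobase of exon. In KO total RNA, B2m, the light chain of MHC class I, stood at 133 ± 30.4 CPM per kb (SD, n = 3), against 149 ± 29.0 in WT total RNA. The heavy chains were next, with H2-D1 at 60.4 ± 13.1 CPM per kb in KO and 59.9 ± 6.33 in WT muscle, and H2-K1 at 46.5 ± 11.3 in KO and 51.7 ± 8.56 in WT muscle. These 3 genes exceeded nearly all others of the list. Ifi27l2a, a small interferon-induced membrane protein, was the exception, at 46.7 ± 30.3 CPM per kb in KO and 175 ± 196 in WT muscle, an SD above its WT mean. Bst2 (tetherin, which holds budding virus at the cell surface) had 30.3 ± 12.9 CPM per kb in KO and 30.1 ± 4.40 in WT muscle. At the low end, Oas3 had 0.0533 ± 0.0133 CPM per kb in KO and 0.160 ± 0.151 in WT muscle, and Mx1 0.286 ± 0.0287 in KO and 0.518 ± 0.220 in WT muscle. H2-K1 and H2-D1 are close paralogs whose reads may have been split or dropped in counting, so their levels are uncertain.

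No gene passed the test between KO and WT muscle in total RNA. With edgeR's quasi-likelihood test, 0 of 13169 genes had an adjusted p under 0.05 in either direction, 569 (4.32%) had an unadjusted p under 0.05, and DESeq2 called 5 genes, none of them of the list. Of the 43 genes, 42 entered the test; Oas3, at most 2.36 CPM, did not. The difference (log2, KO minus WT) was negative for 37 and positive for 5 of the 42, where 52% of all genes tested were negative, and its median was -0.23 against -0.01 over all genes. It ran from -1.91 to 0.10. Unadjusted p was under 0.05 for 3 of the 42, beside the 4.32% of all genes, and the 3 KO libraries lay below the 3 WT libraries for 4 genes, beside 4.56% of all genes; for 0 of the 42 they lay above, beside 5.06%. With library size as the only scaling, the median was -0.44 for the list and -0.23 over all genes.

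The oligoadenylate synthetases, which are switched on by double-stranded RNA and make the oligoadenylates that activate RNase L, stood at the low end of the differences. All 4 of those tested were negative, with a median of -0.67. Oas2 had 8.89, 8.80 and 7.40 CPM in KO total RNA, against 16.8, 10.3 and 20.1 CPM in WT total RNA. All KO values lay below all WT values, and the difference was -0.92 ± 0.25 (log2 ± SE; 0.529-fold; unadjusted p = 0.00552, adjusted p = 0.897), the smallest p of the list. Oas1a had 1.32, 1.09 and 1.29 CPM in KO and 3.15, 1.39 and 1.81 CPM in WT muscle, again without overlap, from 11 counts in each KO library. Its difference of -0.79 ± 0.39 (adjusted p = 0.897) was -0.39 without WT total 1, the highest library. Oasl1, a relative without the enzyme activity, had 1.08, 1.88 and 1.41 CPM in KO against 3.08, 1.16 and 2.23 CPM in WT muscle; these groups overlapped, since WT total 2 lay below 2 KO libraries.

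All 5 transcription regulators were negative, with a median of -0.34. Irf7, the factor that drives the second wave of type I interferon, had 11.7, 10.4 and 17.3 CPM in KO total RNA, against 25.5, 15.4 and 19.2 CPM in WT total RNA. Only KO total 3 reached into the WT range, and the difference was -0.62 ± 0.25 (0.652-fold; unadjusted p = 0.0352, adjusted p = 0.897). Nlrc5, the transactivator of MHC class I genes, had 5.17, 5.83 and 7.63 CPM in KO and 7.95, 7.64 and 11.3 CPM in WT muscle, so that the groups met without overlapping; its difference was -0.54 ± 0.24 (adjusted p = 0.897), and -0.32 without WT total 3. Stat2, a subunit of the interferon-activated complex, had 23.2, 25.9 and 24.9 CPM in KO and 26.1, 27.6 and 39.4 CPM in WT muscle. The KO values were close together just below the lowest WT value, and the difference of -0.34 ± 0.19 became -0.12 without WT total 3. Irf1, the regulator shared with interferon gamma, had 17.7, 18.8 and 19.8 CPM in KO and 17.3, 16.4 and 25.7 CPM in WT muscle; its value of -0.08 ± 0.20 turned to 0.16 without WT total 3. Irf9, the DNA-binding subunit, stood at -0.07 ± 0.19.

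Among the antiviral effectors, 8 of 9 were negative, with a median of -0.31, and none had an unadjusted p under 0.05. Mx1, a dynamin-like GTPase, had 1.20, 0.989 and 1.06 CPM in KO total RNA, against 2.51, 1.00 and 2.37 CPM in WT total RNA. Its relative Mx2 had 1.20, 1.98 and 0.939 CPM in KO and 2.43, 1.54 and 2.93 CPM in WT muscle. In both genes WT total 1 and WT total 3 stood above every KO library, while WT total 2 did not. Ifit1, which binds viral RNA lacking a host cap, had 3.60, 4.94 and 3.88 CPM in KO and 9.09, 6.79 and 3.14 CPM in WT muscle, where WT total 3 was the lowest of all 6. Samd9l, a cytosolic inhibitor of translation, had 10.3, 10.9 and 8.22 CPM in KO and 12.9, 10.7 and 13.5 CPM in WT muscle, overlapping at WT total 2. Rsad2 (viperin, -0.13 ± 0.21), Gbp2 (a guanylate-binding GTPase, -0.02 ± 0.22) and Bst2 (0.01 ± 0.28) were nearest to 0.

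The cytosolic sensors were all negative, between -0.73 ± 0.61 for Zbp1, a sensor of left-handed nucleic acid, and -0.07 ± 0.19 for Ifih1 (MDA5). Ddx58 (RIG-I) stood at -0.11 ± 0.27 and Eif2ak2 (PKR, the kinase that stops translation on double-stranded RNA) at -0.24 ± 0.20. All 3 genes of the ISG15 system, a ubiquitin-like modifier, were negative. Herc6, the ISG15 ligase of the mouse, had 2.88, 4.55 and 4.23 CPM in KO and 5.23, 4.01 and 7.19 CPM in WT muscle, with WT total 2 inside the KO range. Isg15 itself stood at -0.18 ± 0.32 and Usp18, the protease that removes it, at -0.03 ± 0.25. Of the ubiquitin and ADP-ribosyl transfer enzymes, Trim25, Parp9 and Parp14 lay between -0.24 and -0.19, and Dtx3l, the partner of Parp9, at 0.09 ± 0.21; Dtx3l and Parp9 overlap on opposite strands.

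Of the 7 antigen presentation genes, 5 were negative and 2 positive, with a median of -0.06 and a range of -0.27 to 0.02. B2m had 94.8, 105 and 144 CPM in KO total RNA, against 151, 132 and 101 CPM in WT total RNA. H2-K1 had 109, 127 and 174 CPM in KO and 147, 129 and 179 CPM in WT muscle, and H2-D1 had 127, 147 and 193 CPM in KO and 173, 145 and 146 CPM in WT muscle. In each of the 3 the groups overlapped and KO total 1 was lowest. The differences were -0.16 ± 0.21 for B2m, -0.16 ± 0.21 for H2-K1 and 0.01 ± 0.19 for H2-D1; the sign for H2-D1 flipped under library size alone, at -0.22. The immunoproteasome subunits, which cut peptides for MHC class I, stood at -0.01 ± 0.30 (Psmb8), -0.27 ± 0.23 (Psmb9) and 0.02 ± 0.26 (Psmb10), and Tap1, the peptide transporter, at -0.06 ± 0.21. Psmb9 and Tap1 overlap on opposite strands, as do B2m and Patl2, and Irf7 and Phrf1; whether the counting separated strands is not known here, so these values are uncertain.

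Ifi27l2a gave the largest difference of the list, -1.91 ± 0.81, and rested on 1 library. It had 16.7, 10.7 and 37.5 CPM in KO total RNA, against 44.5, 184 and 14.0 CPM in WT total RNA. The 184 CPM came from WT total 2, the library with Ucp1, and without it the difference was -0.42. The other induced genes of this group lay between -0.29 ± 0.27 for Ifi35 and 0.10 ± 0.29 for Lgals3bp, a secreted glycoprotein.

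**Figure D1:**
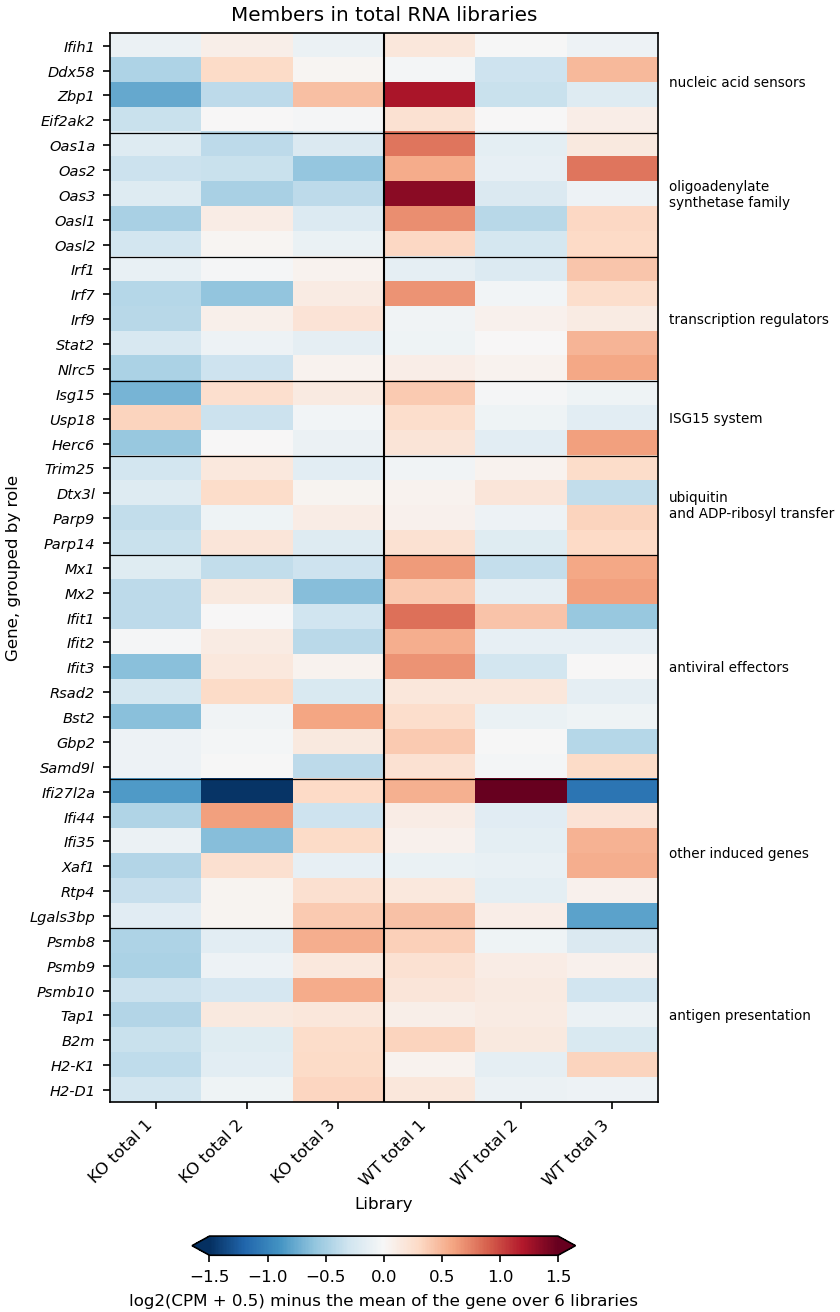
Level of each of the 43 genes in the 6 total RNA libraries, as log2(CPM + 0.5) minus the mean of the gene over the 6 libraries; columns are the 3 KO and the 3 WT libraries, rows are genes grouped by role. KO total 1 is mostly below the mean and WT total 1 mostly above it, and the highest single value of Ifi27l2a is in WT total 2.

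The pattern across libraries was uneven within each genotype, as the heat map of levels by library shows. Over the 42 genes tested, the median deviation from the gene's mean (log2) was -0.34, -0.00 and 0.05 in KO total 1, 2 and 3, against 0.23, -0.08 and 0.11 in WT total 1, 2 and 3. KO total 1 was the lowest library for 26 of the 42 genes. WT total 1 was the highest for 16 and WT total 3 for 14, while KO total 3 was the highest for 7. Without KO total 1, 29 of 42 were negative with a median of -0.10, and without WT total 1, 28 of 42 with a median of -0.18. Without WT total 2, 39 of 42 were negative with a median of -0.27, and without WT total 3, 38 of 42 with a median of -0.16. Without both KO total 1 and WT total 2, the libraries high in Ins2 or Ucp1, 29 of 42 were negative with a median of -0.18. No gene of the list was called under any alternative.

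**Figure D2:**
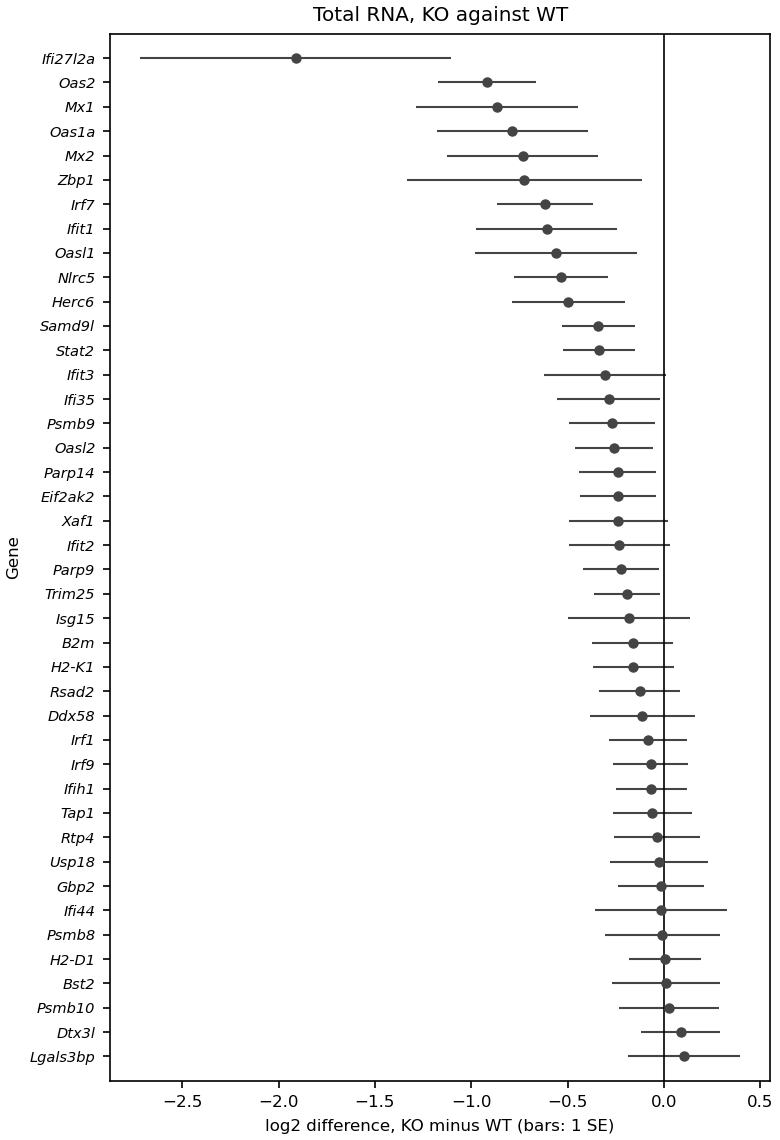
Difference between KO and WT total RNA for the 42 genes tested, as log2 (KO minus WT, horizontal axis) with 1 SE from edgeR, ordered by size. Points for 37 genes lie left of 0 and 5 right of it, from -1.91 for Ifi27l2a to 0.10 for Lgals3bp; no adjusted p was under 0.05.

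The rest of the pathway was read through other lists. The interferons themselves were next to undetected: of 20 ligand genes, 18 had no count in any total RNA library, and none had more than 1 count in a library. Of 72 other interferon-induced genes, 58 were tested, 45 negative and 13 positive, with a median of -0.20; none was called. The smallest p values were those of Ifi204 (-0.77 ± 0.22), Cd274 (the checkpoint ligand PD-L1, -0.81 ± 0.23), Slfn8 (-1.76 ± 0.53) and Ifi213 (-1.13 ± 0.42). Interferon receptors and signalling genes did not lean the same way, with 5 of 12 negative and a median of 0.02. Among 13 nucleic acid sensing genes 10 were negative (median -0.20), and among 19 other genes of class I presentation 8 were negative (median 0.09). Leukocyte markers leaned as the 43 genes did: all 11 tested, of 21 in the list, were negative, with a median of -0.18, and Ptprc (CD45) had 6.61, 5.54 and 5.05 CPM in KO against 10.5, 6.95 and 7.89 CPM in WT muscle. Summed over the 21 markers, the level was 236 to 348 CPM in KO and 218 to 494 CPM in WT total RNA, and none was at 0 throughout a group. MHC class II genes, another mark of immune cells, were negative for 5 of 7, and endothelial markers positive for 7 of 8. Adipocyte markers had the most negative median of the marker lists tested, -0.72, with all 6 of those tested negative. Their sum was 343 to 601 CPM in KO and 436 to 1296 CPM in WT total RNA. The 1296 CPM came from WT total 2, the library high in Ucp1. WT total 1 and WT total 3 had 436 and 480 CPM, inside the KO range. Muscle fibre markers were positive for 8 of 10, with a median of 0.06. None of these markers was called. The part of leukocytes, adipocytes and other cells in the lower values of the 43 genes was not tested.

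The IP was compared between genotypes, where the mice labelled knockout serve by design as the control for the antibody; as given above, the Igf2bp2 level did not separate the IP libraries by genotype. Again no gene passed: edgeR called 0 of 10730 genes, with 1128 (10.5%) under an unadjusted p of 0.05, while DESeq2 called 57 and none of the list. Of the 43 genes, 39 were tested, and 30 of them were higher and 9 lower in KO IP by the sign of the difference, where 50.9% of all genes were higher; the median was 0.20, against 0.01 over all genes. Both KO libraries lay above both WT libraries for 13 of the 39, beside 20.5% of all genes, and below for 4, beside 20.6%. For 6 of the 39 an unadjusted p was under 0.05, beside the 10.5%. Endothelial markers were higher in KO IP for all 8 by the sign of the difference, with a median of 0.48, 5 of them without overlap, and summed to 1092 to 1586 CPM in KO IP and 908 to 927 CPM in WT IP; of the 9 leukocyte markers tested there, 5 were positive (median 0.03). The part of these cells in the IP differences was not tested. Without WT IP 2 the median of the list became -0.08 with 22 of 42 negative, so the lean to KO rested on that library.

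Nlrc5 had the smallest p. It had 6.73 and 10.6 CPM in KO IP, from 7 and 51 counts, against 2.52 and 1.17 CPM in WT IP, from 6 and 3 counts. The groups did not overlap, and the difference of 2.28 ± 0.75 (log2, KO minus WT; 4.85-fold) had an adjusted p of 0.292. B2m had 588 and 809 CPM in KO IP and 541 and 332 CPM in WT IP, a difference of 0.69 ± 0.26 (adjusted p = 0.362). With 1 library left out, the difference of B2m ran from 0.37 (without WT IP 2) to 1.09. It was 0.45 without KO IP 2 and 0.89 without KO IP 1. Each such fit leaves 1 library in a genotype and measures no spread within it, so only differences are given. Lgals3bp had 60.5 and 68.5 CPM in KO IP and 51.7 and 24.2 CPM in WT IP. Its difference of 0.79 ± 0.32 with all 4 libraries became 1.44 without WT IP 1 and 0.33 without WT IP 2. Stat2 had 37.5 and 60.4 CPM in KO IP and 37.0 and 20.6 CPM in WT IP, where KO IP 1 and WT IP 1 all but met. Ifi44 had 36.5 and 44.4 CPM in KO IP and 23.97 and 26.1 CPM in WT IP, with both pairs close together. Their differences were 0.82 ± 0.33 and 0.72 ± 0.29 (adjusted p = 0.402 and 0.406); for Stat2 the difference was 0.45 without WT IP 2 and 0.40 without KO IP 2.

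**Figure D3:**
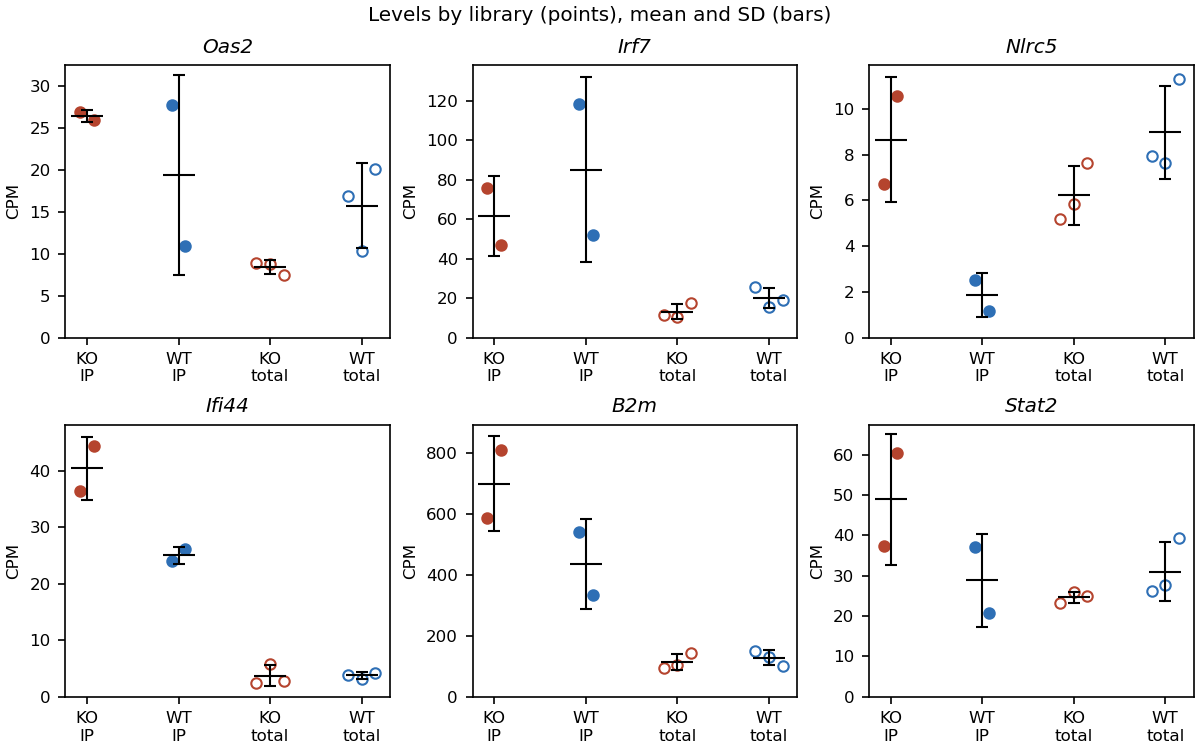
Level in CPM (vertical axes, linear from 0) of 6 genes in KO IP, WT IP, KO total RNA and WT total RNA; points are libraries, bars the mean and SD. B2m and Ifi44 stand higher in IP than in total RNA in both genotypes, and Nlrc5 in WT IP lies below the other 3 groups.

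Set against total RNA, the IP of both genotypes held more of many of these transcripts. In KO muscle, 24 of the 43 genes were called higher in IP and 0 lower, where 17.7% of 14399 genes were called higher and 18.8% lower; 39 of 43 differences were positive, beside 51.4% of all genes, and the median was 1.10 (log2, IP minus total RNA), against 0.03 over all genes. In WT muscle, 16 of the 43 were called higher and 1 lower, where 17.6% of all genes were called higher and 19.4% lower; 33 of 43 were positive, beside 48.3% of all genes, with a median of 0.64, against -0.05 over all genes. Called higher in both were 15 genes, which is 62.5% of the KO calls and 93.8% of the WT calls; Dtx3l was called in WT alone, 9 genes in KO alone and 18 were called higher in neither. The number of calls leaned on single libraries, in the list and over all genes. Without KO total 1, the library high in Ins2, 19 of the KO calls were left, with no count over all genes given here. Without KO IP 2, the deeper one, or without WT IP 1, fewer calls of that genotype were left. Those fits keep 1 IP library in the genotype and measure no spread within it. With 1 library left out, the list median ran from 0.98 to 1.18 in KO and from 0.45 to 0.73 in WT muscle.

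Ifi44, a cytosolic interferon-induced protein, stood out. It had 36.5 and 44.4 CPM in KO IP, against 2.52, 5.83 and 2.82 CPM in KO total RNA, and 23.97 and 26.1 CPM in WT IP, against 3.94, 3.16 and 4.26 CPM in WT total RNA. Every IP library lay above every total RNA library, with differences of 3.44 ± 0.32 in KO (adjusted p = 1.39e-05) and 2.72 ± 0.32 in WT muscle (adjusted p = 3.78e-05). Rsad2 had 29.8 and 78.4 CPM in KO IP, against 9.13, 13.5 and 9.39 CPM in KO total RNA, and 34.9 and 49.1 CPM in WT IP, against 12.5, 12.5 and 10.05 CPM in WT total RNA. Its differences were 2.41 ± 0.32 in KO and 1.85 ± 0.32 in WT muscle, both called, though the KO IP libraries differed from each other more than the WT ones.

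All 7 antigen presentation genes had positive differences in both genotypes, and 6 of 7 were called in each. Those calls leaned on KO IP 2 in KO muscle and on WT IP 1 in WT muscle, since fewer passed without that library. B2m had 588 and 809 CPM in KO IP and 541 and 332 CPM in WT IP, against no more than 151 CPM in any total RNA library; its differences were 2.61 ± 0.27 in KO and 1.77 ± 0.27 in WT muscle. Psmb8 had 22.1 and 32.4 CPM in KO IP, against 5.17, 6.53 and 10.9 CPM in KO total RNA, and 33.6 and 28.8 CPM in WT IP, against 9.52, 6.95 and 6.21 CPM in WT total RNA. Its differences were 1.90 ± 0.32 and 2.04 ± 0.31. Psmb10 (1.20 ± 0.28 in KO, 1.45 ± 0.27 in WT), Tap1 (1.53 ± 0.27 in KO, 0.88 ± 0.28 in WT), H2-K1 (1.31 ± 0.23 in KO, 0.75 ± 0.23 in WT) and H2-D1 (0.94 ± 0.23 in KO, 0.78 ± 0.23 in WT) were also called in both. Psmb9 was not called in either genotype, at 0.18 ± 0.34 in KO and 0.73 ± 0.30 in WT muscle.

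Of the regulators, Irf7 had 75.9 and 47.1 CPM in KO IP, against 11.7, 10.4 and 17.3 CPM in KO total RNA, and 118 and 51.8 CPM in WT IP, against 25.5, 15.4 and 19.2 CPM in WT total RNA. The difference was 2.19 ± 0.35 in KO and 2.08 ± 0.34 in WT muscle, and Irf9 was called in both as well (1.29 ± 0.24 and 0.71 ± 0.24). Nlrc5 was the 1 gene called lower, in WT muscle, at -2.29 ± 0.47 (adjusted p = 0.00180), from the 6 and 3 counts of the WT IP; in KO muscle it stood at 0.58 ± 0.36. The oligoadenylate synthetases were positive for 5 of 5 in both genotypes and called for 3 in KO (Oas2, Oasl1, Oasl2) and for Oasl1 in WT muscle. Among the effectors, Rsad2, Ifit1 and Bst2 were called in both genotypes and Ifit3 in KO muscle. Isg15 (-0.11 ± 0.53 in KO, -0.28 ± 0.50 in WT), Gbp2 (-0.08 ± 0.37 and -0.18 ± 0.37) and Ifit2 (-0.47 ± 0.45 and -0.60 ± 0.44) were negative in both, and none of the 3 passed the test.

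**Figure D4:**
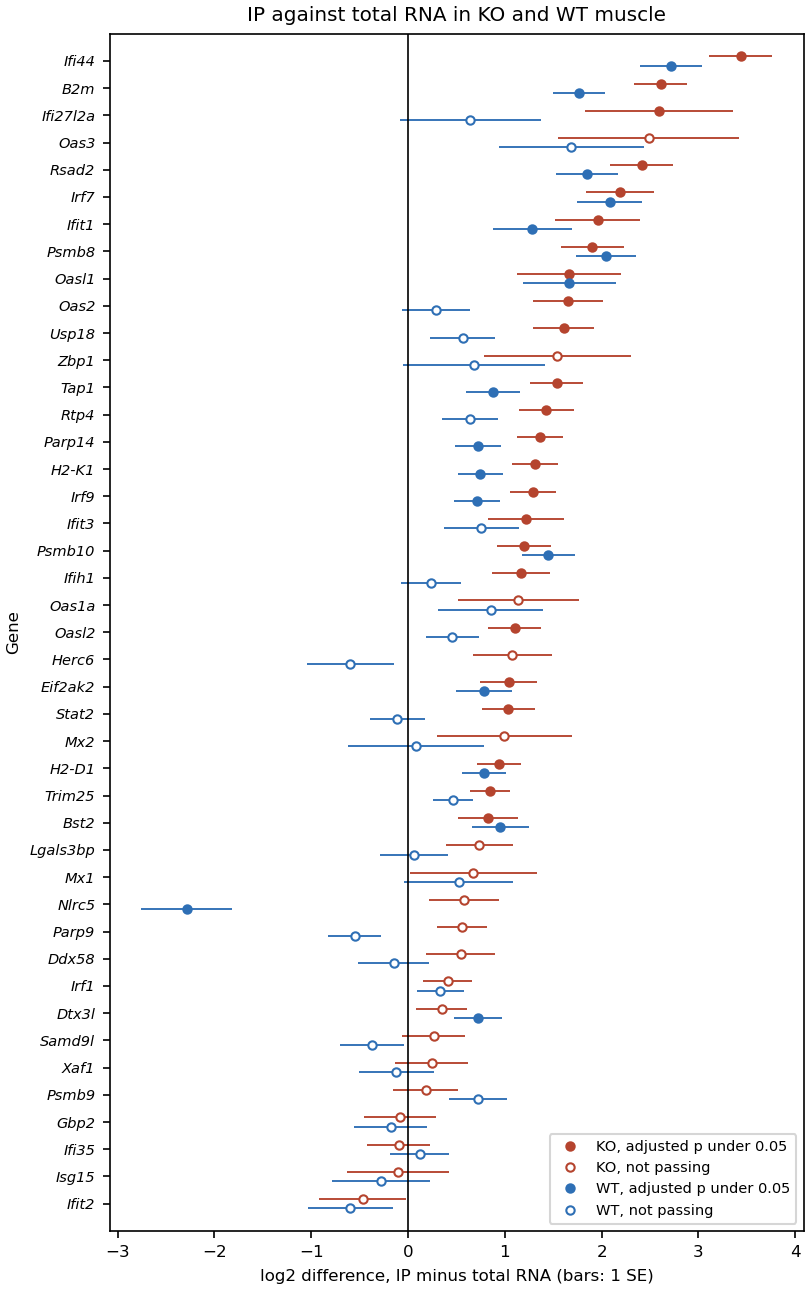
Difference between IP and total RNA for the 43 genes, as log2 (IP minus total RNA, horizontal axis) with 1 SE from edgeR; the upper point of each pair is KO and the lower WT, and filled points have an adjusted p under 0.05. Ifi44 and B2m lead in KO muscle at 3.44 and 2.61, and Nlrc5 is the only filled point left of 0.

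Markers of other cells were also compared between IP and total RNA. For the calls below, the shares over all genes were 17.7% higher and 18.8% lower in KO muscle. In WT muscle they were 17.6% higher and 19.4% lower. Leukocyte markers were positive for 16 of 18 tested in KO and 17 of 18 in WT muscle, with 2 called higher in each, and their sum was 550 to 575 CPM in KO IP and 325 to 847 CPM in WT IP. MHC class II genes were positive for 6 of 7 in both, with 5 called higher in KO and 6 in WT muscle; their sum was 635 to 840 CPM in KO IP and 558 to 696 CPM in WT IP, against 143 to 255 CPM in KO and 127 to 242 CPM in WT total RNA. Muscle fibre markers were negative for 8 of 10 in KO and 9 of 10 in WT muscle, with 7 and 5 called lower. Pancreatic islet markers were positive for 6 of 6 in WT muscle, with 2 called higher, and negative for 6 of 6 in KO muscle, with none called; their sum was 137 to 357 CPM in KO IP and 42.5 to 327 CPM in WT IP, against 0.297 to 2309 CPM in KO total RNA, where KO total 1 was the highest, and 0.628 to 1.00 CPM in WT total RNA. At 0 in both IP libraries were 2 of the 21 leukocyte markers in KO and 1 in WT, and 1 of the 7 class II genes in KO. Transcript length ran weakly the same way over all genes: IP minus total RNA had a Spearman rho of -0.16 in KO and -0.24 in WT muscle with exon length over 14331 genes, and -0.05 and -0.25 over the 43, as a description across genes of the same libraries. The parts of cell types and length in the IP levels were not tested.

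The difference between genotypes in IP over total RNA was tested as an interaction, which uses the same 10 libraries as the comparisons above. With edgeR it called 1 of 14399 genes, lower (0.00694% of genes), and none of the 43; 1703 genes (11.8%) and 8 of the 43 had an unadjusted p under 0.05. The difference (KO minus WT) was positive for 36 of 43, where 51.3% of all genes were positive, and its median was 0.58, against 0.02 over all genes; without WT IP 2 it was 0.25. Nlrc5 was highest at 2.86 ± 0.59 (adjusted p = 0.342), followed in order of p by Parp9 (1.11 ± 0.38), Stat2 (1.15 ± 0.40), Herc6 (1.67 ± 0.61) and Oas2 (1.36 ± 0.51), with adjusted p from 0.342 to 0.349. Parp9 had 16.3 and 22.6 CPM in KO IP, against 11.3, 14.0 and 16.0 CPM in KO total RNA, and 11.4 and 10.5 CPM in WT IP, against 15.5, 13.9 and 18.7 CPM in WT total RNA. Herc6 had 5.76 and 9.54 CPM in KO IP and 2.52 and 4.67 CPM in WT IP, and Oas2 had 26.9 and 25.9 CPM in KO IP and 27.8 and 10.9 CPM in WT IP, so that in Oas2 the genotypes overlapped in the IP. Leaving out 1 IP library moved the difference of Stat2 to 0.71 (without KO IP 2) or 0.74 (without WT IP 2), and that of Oas2 to 0.79 (without WT IP 2) or 2.19 (without WT IP 1). Pairing IP with total RNA by replicate number as a block changed the calls: 147 genes and 4 of the list then passed. They were Ifi27l2a (2.79 ± 0.31, adjusted p = 6.53e-16), B2m (1.20 ± 0.27, adjusted p = 0.00299), Nlrc5 (2.78 ± 0.78, adjusted p = 0.0401) and Lgals3bp (1.17 ± 0.33, adjusted p = 0.0401). In that fit the difference rests on 2 pairs in each genotype, as KO total 3 and WT total 3 have no IP partner. For Ifi27l2a both KO pairs were higher in IP, but the WT pairs went opposite ways. WT IP 1 had 154 CPM against 44.5 CPM in WT total 1. WT IP 2 had 98.2 CPM against 184 CPM in WT total 2. The small p-value of Ifi27l2a cannot be read as a measure of agreement between the WT pairs. The difference of Ifi27l2a leaned on WT total 2, the library high in Ucp1. With the block and without WT total 2, WT muscle was left with 1 pair of IP and total RNA. In that fit, chosen after seeing the data, Ifi27l2a stood at 1.43 and B2m at 0.95. It measures no spread between WT pairs, so only the differences are given. With no block and without WT total 2, Ifi27l2a stood at 0.48 ± 0.71.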

How the data were processed

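Counts of reads per Ensembl gene, 1 table per library, were deposited by the authors; the submitters' processing notes name the tools STAR and HTSeq and the build mm10 (GRCm38). Tool versions, gene annotation, strand setting and read filters are not given in the sources used here. The 5 lines for reads given to no gene were left out of library sizes; reads placed at several sites were 26.1% to 43.3% of reads.

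Genes were filtered with filterByExpr, scaled by TMM factors and tested with edgeR 4.0.16 (quasi-likelihood F test, R 4.3.3), two-sided, with Benjamini-Hochberg adjustment over all genes tested and a threshold of 0.05, in 5 comparisons. KO against WT used the 6 total RNA or the 4 IP libraries alone, and the other comparisons all 10. SE is the log2 difference over the root of F. CPM values use the 10-library factors. Alternatives were library size alone, no filter, a robust fit, DESeq2 1.42.0, the replicate number as a block, and leaving out libraries. Deviations use CPM + 0.5. The procedure was also run on simulated counts with known changes. How many of these it recovered is not given here, so a lack of calls cannot be read as a lack of difference. The limit that a count of 0 allows was set at 3 counts (0.203 to 0.310 CPM for total RNA, 0.743 to 3.27 CPM for IP) and covers counting error only.

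The genes and lists were chosen with earlier results of these data known, so no test was made over a list. All 43 genes could be named; values by library are given for the 12 with the smallest p in total RNA, for Irf1, B2m, H2-K1 and H2-D1, for the 5 with the smallest p in each other comparison, and up to 4 genes with the smallest p of each other list are named, except 1 result that is not reported here. Gbp5 and Gbp6 of the other interferon-induced genes were not matched. Gene positions and exon lengths are from GENCODE M21, promoters from RefSeq GRCm38.p6.

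Whether replicate numbers pair libraries was checked on deviations from group means. IP and total RNA libraries of the same genotype and number correlated at 0.12, 0.10, 0.13 and 0.16, each best with its own number. With 2 IP libraries in a genotype, their deviations mirror each other, so these small values are not independent checks. The numbers were taken as a possible pairing of IP with total RNA, used only in the alternative fit with a block. The main fits held the group alone and no pairing. KO and WT libraries of the same number were not paired (0.10, -0.12 and -0.31 in total RNA, -0.05 in IP).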

Additional observations from a re-analysis of the deposited data

How the results depend on the processing

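In total RNA, KO against WT, library size alone gave a list median of -0.44, no filter called 64 genes and DESeq2 5; leaving out 1 library gave 28 to 39 negative genes of the list and medians of -0.33 to -0.10. H2-D1 turned to -0.22 under library size alone, -0.012 with the replicate block and, without 1 library, ranged from -0.17 to 0.14; Irf1 ranged from -0.19 to 0.16. In IP, KO against WT, calls were 1 under library size alone, 103 without the filter, 24 with the robust fit, 57 with DESeq2 and 28 with the replicate block, which pairs only by number here; leaving out 1 library gave 13 to 146 calls, 0 to 1 of the list, 9 to 22 negative and medians of -0.08 to 0.48. In WT, IP against total RNA, leaving out 1 library changed the number of calls, in the list and over all genes. It gave 8 to 16 negative genes of the list and medians of 0.45 to 0.73. In KO, IP against total RNA, library size alone gave 1 negative gene and a median of 1.53 (all genes 0.47), the block 2 negative, and leaving out 1 library 2148 to 5706 calls, 11 to 27 of the list and 2 to 5 negative. For the genotype difference of IP against total RNA, library size alone called 0 genes and gave 2 negative genes and a median of 0.97 (all genes 0.40); no filter called 263 genes, 2 of the list (Nlrc5 and Ifi27l2a); DESeq2 called 17; the block called 147, 4 of the list, and the block without WT total 2, added after seeing the data, 48, 1 of the list and 4 negative; leaving out 1 library gave 0 to 1 calls, 4 to 14 negative and medians of 0.25 to 0.82. The cause of these shifts was not tested. The block changed no other call count by more than 1.5 times. KO IP 1, at 917462 counts, and genes of under 10 counts in an IP library also limit the IP comparisons.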

Other observations

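The wider interferon pathway in the IP, not described above, was mixed. Of 65 other interferon-induced genes tested, 23 were called higher and 5 lower in KO IP against KO total RNA, beside 17.7% and 18.8% of all genes. In WT IP against WT total RNA, 11 were called higher and 8 lower, beside 17.6% and 19.4% of all genes. Slfn5, a Schlafen family member, was called lower in IP in both genotypes, at 5.76 and 5.19 CPM in KO IP and 4.63 and 3.12 CPM in WT IP, against 26.1 to 31.2 CPM in KO and 27.4 to 30.3 CPM in WT total RNA; its differences were -2.40 ± 0.27 in KO and -2.92 ± 0.28 in WT muscle. Of the receptors, Ifngr1 (1.71 ± 0.21 in KO, 1.54 ± 0.21 in WT) and Il10rb (1.63 ± 0.27 and 1.86 ± 0.27) were called higher in IP, and the kinase Jak1 (-0.97 ± 0.19 and -0.86 ± 0.19) and the phosphatase Ptpn11 (-1.98 ± 0.21 and -1.90 ± 0.21) lower.

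The constitutive proteasome subunit Psmb5, which Psmb8 replaces in the immunoproteasome, was called lower in KO IP against KO total RNA (-2.47 ± 0.32). It had 11.5 and 8.51 CPM in KO IP and 22.3 and 19.1 CPM in WT IP, against 41.5 to 72.8 CPM in KO and 40.8 to 46.8 CPM in WT total RNA. In WT muscle too, both IP libraries lay below every total RNA library. Between genotypes within the IP its difference of -1.10 ± 0.43 did not pass the test (adjusted p = 0.377). Nor did its genotype difference of IP against total RNA, at -1.37 ± 0.41 (adjusted p = 0.342). Of 14 nucleic acid sensing genes, 5 were called higher and 0 lower in KO IP, beside 17.7% and 18.8% of all genes. In WT IP, 3 were called higher and 1 lower, beside 17.6% and 19.4%. The sensor adaptors Sting1 (1.38 ± 0.26 in KO, 1.30 ± 0.25 in WT) and Myd88 (1.23 ± 0.28 and 1.03 ± 0.27) were called higher in IP in both genotypes. Tbk1 was the gene called lower in WT muscle (-1.33 ± 0.36).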
